A study of Cyprinus carpio with 18 samples.

Results

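The 2 ends of a developmental series of common carp, Cyprinus carpio, were compared, from the cleaving egg to the newly hatched larva. The fish were wild type and of the FFRC No.2 strain, a farmed variety bred by selection, and the embryos came from natural spawning. Of 18 libraries of whole embryos and larvae, 6 enter the comparison, chosen by their labelled stage. These are 3 libraries of cleavage at 2 hours post-fertilization (hpf) and 3 of the larva 1 day post-hatching. Between them lie 4 stages with 3 libraries each. The blastocyst was taken at 6 hpf and gastrulation at 12 hpf. Organ formation followed at 20 hpf and hatching at 64 hpf. They are used to fit the spread between libraries and to show what happened between the ends. Equal amounts of RNA were combined within each stage, according to the labels' protocols, and nothing in the labels says that the 3 libraries of a stage came from separate spawnings. The p-values therefore measure a spread among libraries that may be only technical. The deposited table holds 90808 rows, each a gene or an assembled transcript locus, and the 69265 rows with enough counts were tested.

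A fish egg is loaded with RNA and protein by the mother. The early cleavages run on this store, before the embryo's own genome is read in earnest, and the store is then cleared while zygotic transcription takes over. By hatching the animal has contracting muscle, circulating blood, a functioning skin, eyes and nerves, and it lives on yolk until it feeds. Carp also carries a duplicated genome, so that many genes have a second copy that may be used at another time.

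Cleavage libraries held 31238862, 24007184 and 16326813 counts, and larval libraries 25476993, 28707423 and 23300076. A read was seen in 42678 to 49097 rows at cleavage and in 75424 to 77023 rows in the larva. The 100 rows with most reads took 6.64% to 7.03% of the counts at cleavage and 16.5% to 17.3% in the larva. Levels are given as CPM, read counts scaled to a common library size with TMM factors, so every value is relative to the rest of its library. In whole animals, fewer cells of a type and less RNA per cell cannot be told apart. Stage markers went with the labels: btg4, wee2 and egg coat genes were high at cleavage, while hemoglobin, fast muscle and crystallin genes were found in the larva.

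Larva replicate 3 stood apart from the other 2 larval libraries. Among 27379 rows at 5 CPM or more, 1394 lay at least 2-fold from the mean of the other 2, which were close to each other, in larva replicate 3, against 6 in replicate 1 and 3 in replicate 2. At cleavage the same count was 187, 13 and 49 of 19358 rows in replicates 1, 2 and 3. Its summed level of pancreatic enzyme genes was 3381 CPM, against 169 and 167.6 CPM in replicates 1 and 2. Its photoreceptor genes summed to 2929 CPM against 1284 and 1582 CPM, and its plasma protein genes to 21850 CPM against 30410 and 31160 CPM. Where this library decides a value named below, the value without it is given too.

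Most of the transcriptome differed between the ends. Of 69265 rows 40498 (58.5%) were higher in the larva and 15567 (22.5%) were lower, at an adjusted p under 0.05 by edgeR's quasi-likelihood test with Benjamini-Hochberg adjustment. Such rows are said below to have risen or fallen, from cleavage to larva. The median log2 change over all rows was 1.87, with rows that had no counts at 1 stage set to the lower bound of their change, which takes 3 counts summed over that stage as a floor. The same convention is used for every median below. Of 41841 protein-coding rows 22559 (53.9%) rose and 12028 (28.7%) fell, with a median of 1.07. Changes of 4-fold or more among them were 17555 rises and 4106 falls. The gene lists below were drawn from protein-coding rows, so the shares of 53.9% and 28.7% are the background for their counts.

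Among long non-coding RNAs (lncRNAs), the loci known only by an assembly name leaned further toward the larva. Of 23394 lncRNA loci known only by a StringTie assembly name, 15640 (66.9%) rose and 2886 (12.3%) fell, with a median log2 change of 3.26. The 3974 lncRNAs with an NCBI GeneID had 2256 rises (56.8%) and 644 falls (16.2%), with a median of 2.02. Over all rows the shares were 58.5% and 22.5% and the median 1.87. The StringTie loci took 3.81% to 4.66% of the counts at cleavage and 6.26% to 8.34% in the larva, with no overlap between the stages. Among lncRNAs the largest fitted rise was that of LOC109107178, with no read at cleavage and 385, 571 and 531 CPM in the larva, at least 14670-fold higher. LOC109058439, an uncharacterized protein-coding row, had no read at cleavage and 881, 850.2 and 871 CPM in the larva. The lncRNA locus MSTRG.86403 had the largest fitted fall, from 73.2, 69.3 and 81.6 CPM to no read in any larval library.

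Many more rows were found at the larval end alone than at the cleavage end alone. Rows with at least 10 counts in each larval library and no count in any cleavage library numbered 12606, of them 5167 protein-coding and 6747 StringTie lncRNA loci. The reverse held for 249 rows, of them 64 protein-coding and 174 StringTie lncRNA loci. A count of 0 over the 3 libraries allows a level of up to 0.0339 CPM at cleavage and 0.0389 CPM in the larva, from counting error alone.

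**Figure D1:**
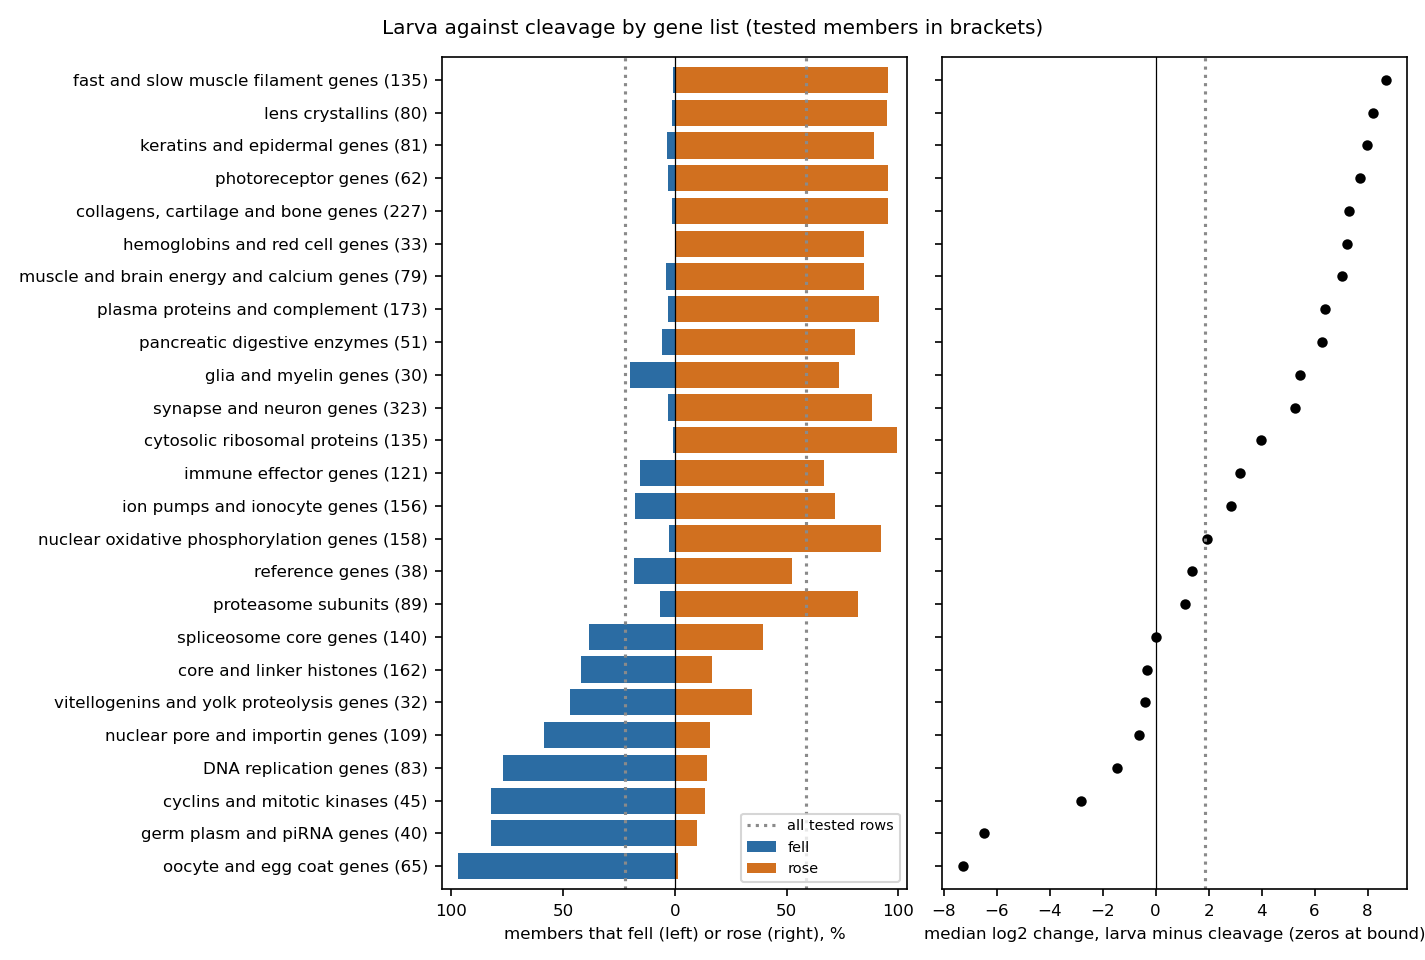
Share of the tested members of 25 gene lists that fell (blue, left) or rose (orange, right) from cleavage to larva, and the median log2 change of each list on the right; dotted lines give the values over all tested rows. Oocyte and germ plasm genes lie at the lower end and muscle filament, crystallin and photoreceptor genes at the upper end, with histone and spliceosome genes between.

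The genes of the egg were the ones most depleted in the larva. Of 65 oocyte and egg coat genes 63 fell and 1 rose (2 without cleavage replicate 3), with a median log2 change of -7.26. Their summed level went from 3419 ± 98.2 CPM (SD, n = 3) to 63.9 ± 7.37 CPM (SD, n = 3). The single riser, npm3, encodes a histone chaperone of the nucleoplasmin family, and went from 5.90, 5.37 and 4.69 CPM to 14.9, 17.2 and 14.8 CPM.

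Btg4, an adaptor that recruits the deadenylase complex for clearance of maternal messages in mouse, stood at 661, 610.1 and 693 CPM at cleavage and at 0.0387, 0.0701 and 0.0440 CPM in the larva. It fell by 13.51 ± 0.74 on the log2 scale (edgeR adjusted p = 3.1e-10). Here and below, the ± of an edgeR change is an approximate SE. It is the absolute change divided by the square root of the test's F value, and is rough for rows with few counts. Wee2, an oocyte kinase that holds meiosis in check, went from 275, 268 and 269 CPM to 0, 0.105 and 0.0440 CPM. At blastocyst its mean was 389 CPM, higher than at cleavage. The cleavage and larval libraries do not come near each other for either gene. A zona pellucida sperm-binding protein 3-like gene (LOC109058316), which encodes a protein of the egg coat, went from 158, 144 and 154 CPM to a single read in the larva, a ratio of 11741 with a 95% counting interval of 2107 to 463789. A zygote arrest protein 1-like gene (LOC109097738), an RNA-binding regulator of the egg's messages, fell less far, from 230.1, 260.4 and 231 CPM to 2.94, 2.35 and 2.16 CPM.

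The largest fall by the fit was that of slbp2, the oocyte form of the protein that binds the stem-loop of histone messages. It stood at 170, 167 and 169 CPM at cleavage and had no read in the larva, at least 4336-fold lower (edgeR adjusted p = 3.2e-17). An oocyte-type TATA box-binding protein-like protein 2 (LOC109107434) went from 34.9, 29.6 and 33.6 CPM to no read, at least 843-fold lower. The general TATA-box-binding protein-like gene (LOC109083159), often used as a reference gene, also fell, from 44.1, 66.5 and 53.6 CPM to 4.53, 4.73 and 4.84 CPM, by 3.54 ± 0.19 on the log2 scale (edgeR adjusted p = 2.6e-13).

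The 12 largest falls, taken at most 1 per product name, held genes of several other functions. Their rank depends in part on the small prior count of the fit, since they had few or no larval reads. An importin subunit alpha-5-like gene (LOC109061139), an adaptor that carries proteins into the nucleus, went from 292, 289.7 and 284 CPM to 0.0387, 0.0701 and 0.0440 CPM. The claudin-like gene cldng, of the family that seals contacts between cells, went from 119, 146 and 187 CPM to 2 reads in larva replicate 1 and none in the others. A sperm-like histone H2B.1 gene (LOC109085534) and a nuclear mitotic apparatus protein 1-like gene (LOC109065289) had no read in the larva, at least 863-fold and 743-fold lower. A cystatin-like protease inhibitor gene (LOC109050100) was at least 1392-fold lower and a zinc finger protein 239-like gene (LOC109105698) at least 685-fold lower. These falls were named only where the libraries of the 2 stages did not overlap, so that separation follows from the choice.

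**Figure D2:**
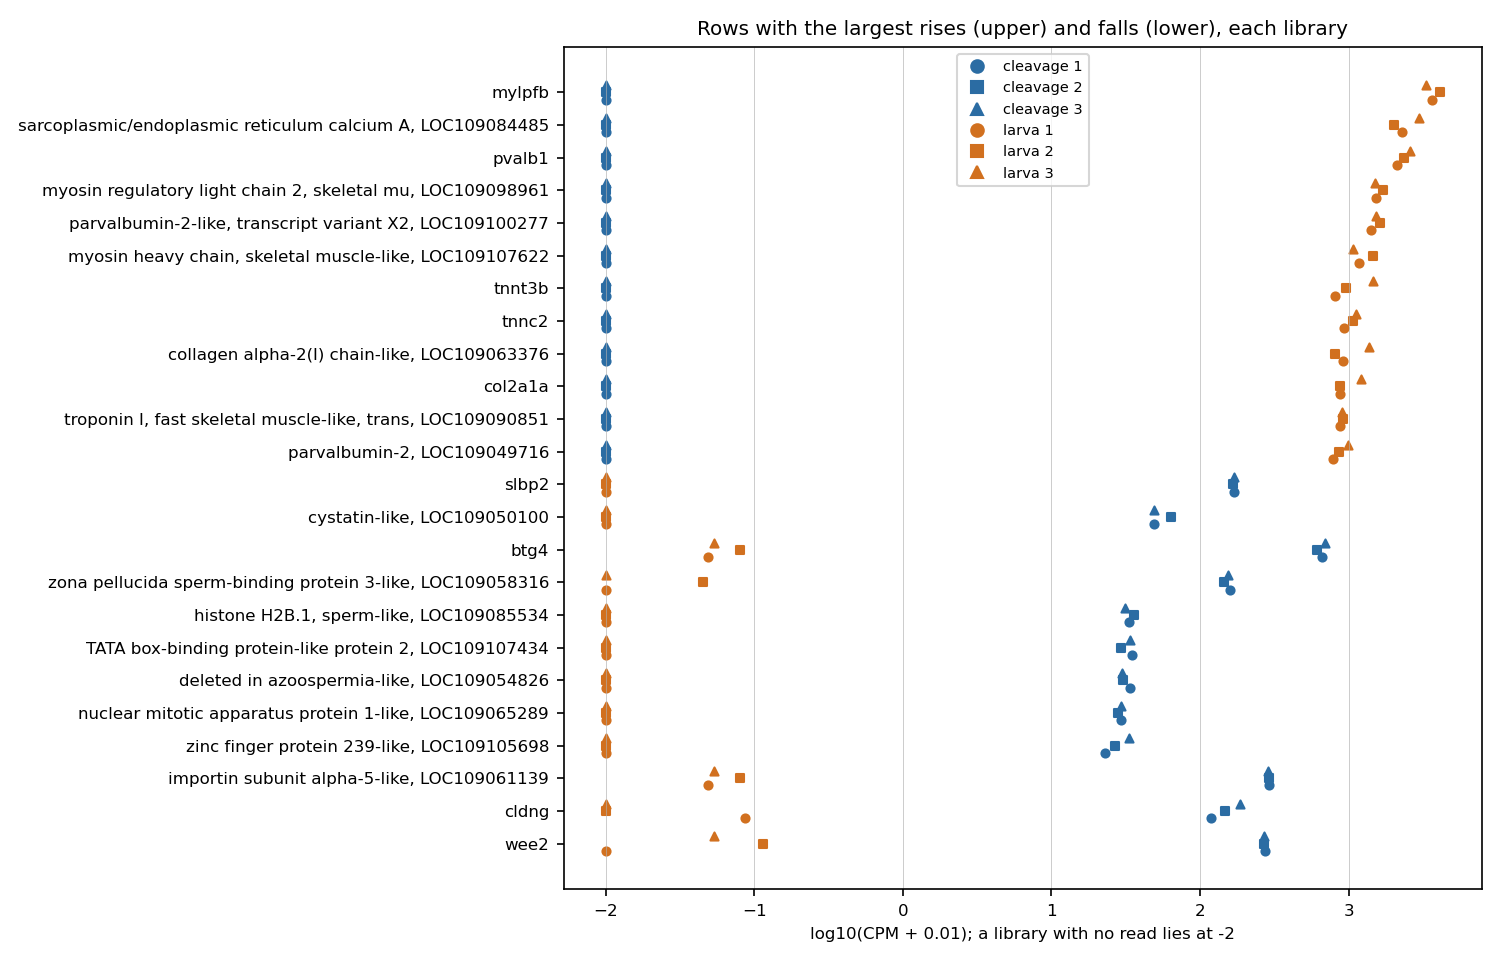
Level of the 12 named protein-coding rows with the largest rise (upper) and the 12 with the largest fall (lower), at most 1 per product name. Values are for each of the 3 cleavage (blue) and 3 larval (orange) libraries, as log10 of CPM plus 0.01. All 12 rising rows have no read at cleavage, and the falling rows lie at or below 0.105 CPM in every larval library.

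Germ plasm and piRNA genes, which specify germ cells and silence transposons there, fell in 33 of 40 cases and rose in 4, with a median of -6.49. Their summed level went from 2308 ± 56.9 CPM to 185 ± 7.74 CPM (SD, n = 3). One tudor domain-containing protein 6-like gene, tdrd6, a scaffold of germ granules, went from 321, 272 and 317 CPM to 4.76, 4.91 and 5.02 CPM. Both deleted in azoospermia-like rows, which encode a germ-cell RNA-binding protein, had no read in the larva, at least 813-fold and 388-fold lower. A tudor domain-containing protein 3-like gene (LOC109110067) fell by only 0.69 ± 0.09 (log2, edgeR adjusted p = 2.7e-07) and met the test of a stable level described below. The rises included nanos homolog 1 (nanos1), a translational repressor, which had no read at cleavage and 12.6, 13.7 and 10.1 CPM in the larva.

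Genes of the cell cycle also belonged to the cleavage end. Of 45 cyclins and mitotic kinases 37 fell and 6 rose, with a median of -2.81, and their summed level went from 7657 ± 149 CPM to 854 ± 69.8 CPM. Cyclin-A1 (ccna1), the germline A-type cyclin, went from 796, 666 and 734 CPM to 1.43, 2.00 and 1.81 CPM. The mitotic kinase plk1 kept more, going from 565, 624 and 604 CPM to 78.2, 81.7 and 96.4 CPM, a fall of 2.81 ± 0.12 (log2, edgeR adjusted p = 1.3e-14). In the other direction went the G1 cyclin ccnd2a, from 3.29, 3.62 and 3.96 CPM to 38.6, 39.6 and 39.9 CPM.

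Replication genes fell in 64 of 83 cases and rose in 12, with a median of -1.47. The origin-licensing factor cdt1 went from 436, 439 and 392 CPM to 15.4, 15.6 and 17.6 CPM. The geminin-like inhibitor of cdt1 (LOC109107037) went from 439, 381 and 433 CPM to 6.39, 7.11 and 7.22 CPM. Pcna, the sliding clamp of DNA polymerase, went the other way and by little, from 107, 123 and 137 CPM to 158, 157 and 169 CPM, a rise of 0.40 ± 0.10 (log2, edgeR adjusted p = 0.0011). No larval library lay below a cleavage library, although the change was small enough to meet the test of a stable level below.

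The MCM6 helicase subunit was carried by different rows at the 2 ends. The row annotated as maternal mcm6, mcm6l, stood at 222, 229 and 208 CPM at cleavage and at 0.194, 0.105 and 0 CPM in the larva. The rows mcm6 and LOC109054529, both named MCM6-like, had 7 and 3 counts at cleavage and reached 61.1, 61.7 and 63.0 CPM and 52.2, 50.5 and 55.2 CPM in the larva. The fall of mcm6l was 10.99 ± 0.30 and the rise of mcm6 9.53 ± 0.38 (log2, edgeR adjusted p = 9.3e-18 and 1.4e-14).

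The nuclear pore and importin list also took in the unrelated taperin gene by its symbol. It fell in 64 of 109 cases (58.7%) and rose in 17 (15.6%), with a median of -0.64. Yolk genes were mixed, with 15 falls (46.9%) and 11 rises (34.4%) among 32 vitellogenin and yolk proteolysis genes. Over all protein-coding rows 28.7% fell and 53.9% rose. The yolk list's median was -0.42, and its sign was not stable, with -1.21 without larva replicate 3 and 0.11 without cleavage replicate 1. A cathepsin B-like protease gene (LOC109064705) went from 715, 671 and 709 CPM to 139, 133 and 150.4 CPM. The cathepsin L1-like gene ctsla rose from 371, 299 and 327 CPM to 618, 554 and 529 CPM.

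Skeletal muscle stood at the larval extreme. Of 135 filament genes 129 rose and 1 fell, with a median log2 change of 8.69, and 75 had no read at cleavage. Their summed level went from 554 ± 66.4 CPM to 57950 ± 4390 CPM (SD, n = 3). The largest fitted rise of a named gene was that of mylpfb, a regulatory light chain of fast muscle myosin, with no read at cleavage and 3650, 4123 and 3325 CPM in the larva. That is at least 110103-fold higher (edgeR adjusted p = 1.1e-16). Its level was 0.604 CPM at gastrulation, 73.7 CPM at organ formation and 2571 CPM at hatching. Of the 12 largest named rises, taken at most 1 per product name, 10 were genes of muscle contraction or its calcium handling. The other 2 were the collagens LOC109063376 and col2a1a. All 12 had no read at cleavage, so their fitted changes depend on the small prior count of the fit. Their rank follows the larval level. Rows with some reads at cleavage ranked lower, even at a higher larval level. Examples are actc1b, with 47 counts at cleavage and a larval mean of 5740 CPM, and apolipoprotein B-100-like (LOC109112641), with 28 and 5839 CPM.

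Fast troponins, the calcium switch of the thin filament, were among them. Tnnt3b had 806, 960.4 and 1449 CPM and tnnc2 had 928, 1072 and 1117 CPM in the larva, both with no read at cleavage. The calcium pump of the sarcoplasmic reticulum (LOC109084485, SERCA1-like) and the calcium buffer parvalbumin (pvalb1) were at least 70295-fold and 68617-fold higher. The skeletal actin actc1b was not wholly absent at cleavage, with 0.601, 0.805 and 0 CPM against 5001, 5064 and 7155 CPM in the larva. The only filament gene that fell, a titin homolog (LOC109101381), moved by 0.33 ± 0.12 (log2, edgeR adjusted p = 0.015), from 44.9, 55.3 and 50.8 CPM to 46.7, 41.0 and 32.3 CPM, and the ranges overlap. Without cleavage replicate 2, no filament gene fell. Genes of muscle and brain energy and calcium supply rose in 67 of 79 cases, with a median of 7.02.

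Skeletal and skin genes followed. Of 227 collagen, cartilage and bone genes 216 rose and 3 fell, with a median of 7.31. Col1a1a, of the main collagen of bone and skin, went from 0, 0.403 and 0.293 CPM to 2352, 1938 and 2892 CPM. Col2a1a, of the main collagen of cartilage, had no read at cleavage and 870.4, 869 and 1208 CPM in the larva. Of 81 keratin and epidermal genes 72 rose and 3 fell, with a median of 7.98. Krt4, a keratin of the surface epithelium in zebrafish, went from 0.0784, 0.0671 and 0.293 CPM to 938, 945 and 835 CPM. The desmosome linker periplakin (LOC109045331) was present from the start, at 111, 101 and 103 CPM, and rose to 292, 337 and 367 CPM.

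Blood and plasma genes were low at cleavage, red cell genes most of all. Of 33 hemoglobin and red cell genes 28 rose and the other 5 did not pass, and their summed level went from 3.11 ± 0.192 CPM to 2763 ± 131 CPM (SD, n = 3). An embryonic alpha globin (LOC109056219) had no read at cleavage and 777, 681 and 847 CPM in the larva, at least 22496-fold higher. Of 173 plasma protein and complement genes 158 rose and 5 fell, with a median of 6.38. Their sum went from 307 ± 11.8 CPM to 27810 ± 5170 CPM (SD, n = 3). Apolipoprotein B-100-like (LOC109112641), the frame protein of lipoproteins that export yolk lipid, had 28 counts over the cleavage libraries and reached 6936, 8027 and 2555 CPM in the larva. Larva replicate 3 was the low one, and the 2 stages still lie far apart. The fibrinogen chains fgg and fgb had no read at cleavage and 391 to 611 CPM in the larva.

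**Figure D3:**
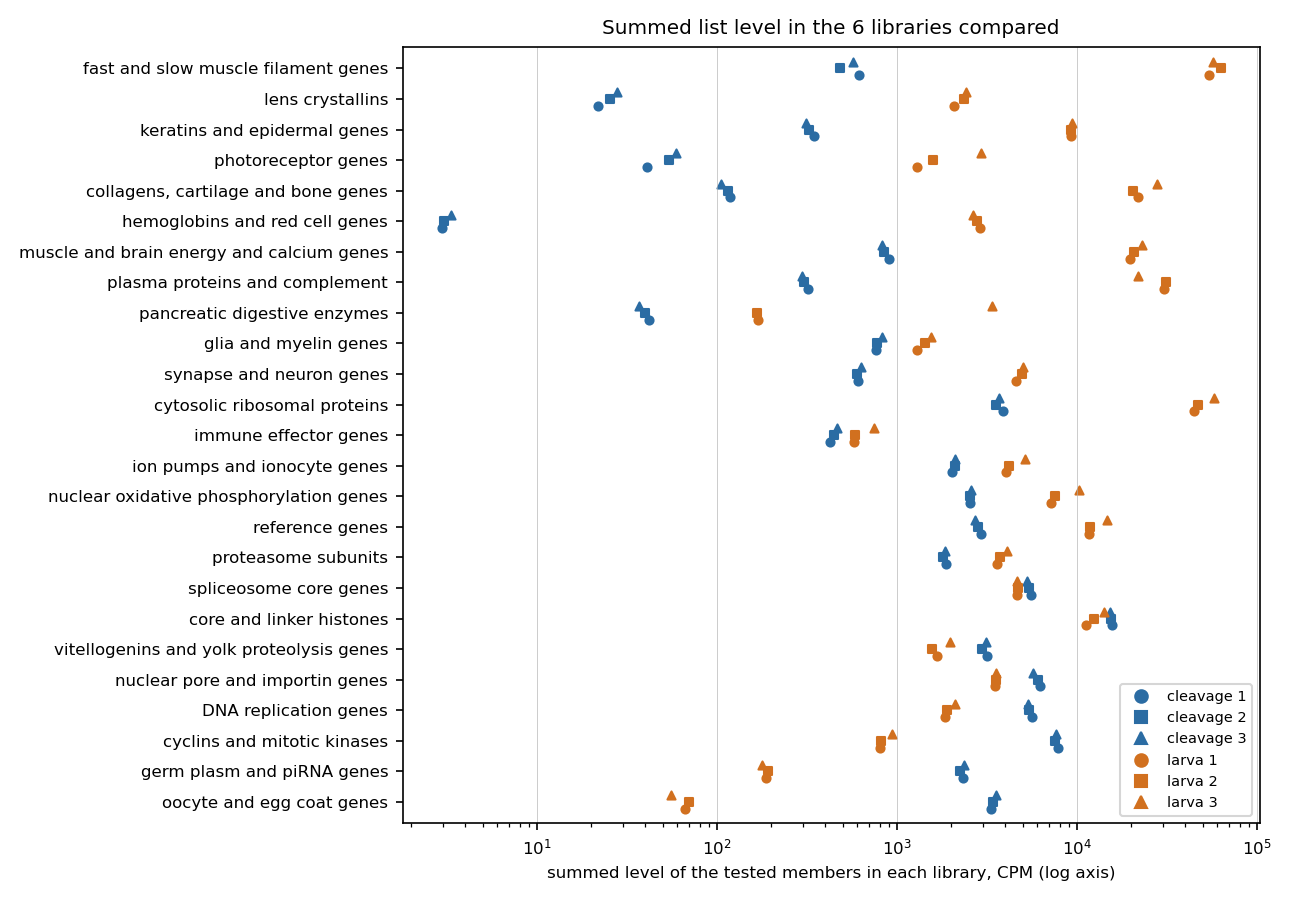
Summed CPM of the tested members of each list in each of the 3 cleavage (blue) and 3 larval (orange) libraries, on a log axis, with lists ordered as by median change. The stages overlap in none of the 25 lists, and larva replicate 3 (triangle) stands apart most in pancreatic enzymes, at 3381 CPM against 167.6 and 169 CPM.

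Eye and nerve genes rose broadly. Of 80 lens crystallins 76 rose and 1 fell, with a median of 8.21 and 55 without a read at cleavage. Of 62 photoreceptor genes 59 rose and 2 fell, with a median of 7.72. The red-sensitive opsin opn1lw1, the pigment of long-wavelength cones, had no read at cleavage and 219, 271 and 650 CPM in the larva, and 58 of the list rose without larva replicate 3. The 2 falls, in 2 subunits of the rod cGMP phosphodiesterase, were lost without cleavage replicate 3, larva replicate 1 or larva replicate 2, and 1 was lost without cleavage replicate 2.

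Of 323 synapse and neuron genes 285 rose and 10 fell, with a median of 5.28. Snap25a, of the machinery that fuses synaptic vesicles, went from 0.209, 0.0335 and 0 CPM to 109, 128 and 161 CPM. Gap43, a protein of growing axons, had no read at cleavage and 84.8, 96.2 and 99 CPM in the larva. Glia and myelin genes rose in 22 of 30 cases (73.3%) and fell in 6 (20.0%), beside 53.9% and 28.7% of all protein-coding rows. The glial filament gene LOC109063688 had no read at cleavage and 223, 224 and 201 CPM in the larva. The falls included 2 glutamine synthetases, which make glutamine from glutamate, and 2 excitatory amino acid transporters, and the glutamine synthetase LOC109069865 went from 365, 356 and 378 CPM to 134, 147 and 128 CPM.

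Digestive enzymes of the pancreas rose in 41 of 51 cases and fell in 3, and 40 rose without larva replicate 3. With only the 6 compared libraries in the fit, 24 rose. Elastase cela1, a pancreatic protease, had no read at cleavage and 7.35, 12.0 and 659 CPM in the larva. Trypsin prss59.1 had 1.01, 1.16 and 409 CPM there. Both were found in every larval library, with replicate 3 far above the others. With no read at cleavage, they were at least 5936-fold and 3582-fold higher, bounds that take in replicate 3. Both passed the test with wide errors, at fitted log2 changes of 15.66 ± 3.44 and 14.94 ± 4.14 (edgeR adjusted p = 0.0026 and 0.0089). The size of these fitted changes depends on the small prior count of the fit. Without larva replicate 3 the fitted changes were 11.04 and 7.89, still past the threshold, and with only the 6 compared libraries in the fit neither passed. The fitted median of the list was 7.64 with and 6.81 without that library. A pancreatic alpha-amylase-like gene (LOC109107643) was instead high at cleavage, at 26.8, 25.5 and 24.2 CPM against 0.542, 0.140 and 0.132 CPM.

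Immune effector genes rose in 81 of 121 cases (66.9%) and fell in 19 (15.7%), with a median of 3.20. Over all protein-coding rows the shares were 53.9% and 28.7% and the median 1.07. The fitted median of the immune list was 4.08, and 5.70 without cleavage replicate 2. The list took in cartilage genes named leukocyte cell-derived chemotaxin 1 (cnmd among them). An interleukin-1 beta-like gene (LOC109097442), an inflammatory cytokine, went from 50.7, 59.1 and 64.7 CPM to 2.36, 1.16 and 0.617 CPM, while a lysozyme C-like gene (LOC109090952), an antibacterial enzyme, had no read at cleavage and 51.8, 51.5 and 37.7 CPM in the larva. Ion pumps and ionocyte genes rose in 112 of 156 cases (71.8%) and fell in 28 (17.9%). The ammonium transporter rhbg, of the skin ionocytes and keratinocytes of fish, had no read at cleavage and 92.5, 85.6 and 143 CPM in the larva.

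The machinery of every cell did not move as one. Of 135 cytosolic ribosomal protein genes 134 rose, with a median of 3.97, and their sum went from 3703 ± 168 CPM to 49840 ± 6880 CPM (SD, n = 3). The single row that fell, rps19bp1, encodes a protein that binds a ribosomal protein and was taken into the list by its name. Of 158 nuclear oxidative phosphorylation genes 146 rose and 4 fell, with a median of 1.94. The isoform 2 row of cytochrome c oxidase subunit 4 (LOC109078480) was an exception, going from 69.0, 61.0 and 63.4 CPM to 2.25, 2.31 and 5.06 CPM. Of 89 proteasome subunits 73 (82.0%) rose and 6 (6.74%) fell, with a median of 1.12, beside 53.9% and 28.7% of all protein-coding rows.

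Of 38 reference genes 20 (52.6%) rose, 7 (18.4%) fell and 6 (15.8%) were stable by the test below. Over all protein-coding rows, the class the lists were drawn from, the shares were 53.9%, 28.7% and 9.73%. Elongation factor 1-alpha (LOC109111735), the carrier of aminoacyl-tRNA, went from 519, 503 and 474 CPM to 5441, 5515 and 7159 CPM, a rise of 3.60 ± 0.16 (log2, edgeR adjusted p = 1e-14). Cytoplasmic actin actb1 went from 583, 543 and 483 CPM to 1987, 1984 and 2165 CPM. All larval libraries exceeded all cleavage libraries for both genes.

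Spliceosome genes were divided evenly, with 55 rises (39.3%) and 54 falls (38.6%) among 140. Over all protein-coding rows 53.9% rose and 28.7% fell. The list's median of -0.004 changed sign under other settings. The U2 component LOC109070446 (splicing factor 3B subunit 3-like) went from 123, 143 and 130 CPM to 256, 253 and 241 CPM. Prpf4, of the U4/U6 particle, went from 143, 115 and 108 CPM to 23.5, 25.9 and 20.3 CPM. Histone genes fell in 68 of 162 cases (42.0%) and rose in 27 (16.7%), with a median of -0.31. Their sum went from 15450 ± 151 CPM to 12570 ± 1480 CPM (SD, n = 3). Most histone messages have no poly(A) tail, and per the labels' protocols these libraries were made by removing ribosomal RNA, which retains such messages. Histones, globins, keratins and crystallins come in near-identical copies, so the values of their single rows are uncertain where reads fit several copies.

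Stable rows need a test of their own, since a p that misses the threshold does not show a stable level. A row was called stable when its change was shown to be smaller than 2-fold in either direction, by 2 one-sided edgeR tests against that bound with an adjusted p under 0.05. This held for 4472 of 69265 rows (6.46%), of them 4073 protein-coding (9.73% of that class), 95 lncRNAs with a GeneID and 302 StringTie lncRNA loci. A further 10306 rows neither passed as changed nor as stable. Of the stable rows, 1578 had also risen or fallen by a small amount. The largest absolute log2 change among stable rows was 0.71 and the median 0.24. Of the rows whose log2 change lay within 0.1 of 0, 995 were stable and 921 were not. Stable rows had a median level of 21.8 CPM over both stages, against 2.34 CPM over all tested rows.

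A stable level depends on how the libraries are scaled. The scalings shifted the median change of all rows by -0.31 (library totals), 0.16 (DESeq2 size factors) and -0.39 (the library sizes implied by the deposited RPKM) on the log2 scale. With these, 3828, 4825 and 2518 rows were stable, and 1205 rows were stable under all 4 scalings, of them 1150 protein-coding and 54 lncRNAs. With TMM factors, stable rows made up 32.7% of the tested histone genes, 30.0% of the spliceosome genes and 28.4% of the nuclear pore and importin genes. Over all protein-coding rows the stable share was 9.73%. Stable rows made up 15.7% of proteasome subunits, 1.48% of muscle filament genes and 0.441% of collagen, cartilage and bone genes.

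Filamin-A-like (LOC109048731), which cross-links actin, changed least among 12 stable genes of high level, named at most 1 per product name, with 425, 408 and 408 CPM at cleavage and 421, 418 and 408 CPM in the larva. Its change was 0.01 ± 0.08 (log2, edgeR adjusted p of equivalence = 1.4e-06), it was stable under all 4 scalings, and its mean stayed between 354 and 509 CPM in the stages between. The core spliceosome protein row LOC109088506 (pre-mRNA-processing-splicing factor 8-like) had 559, 459 and 406 CPM at cleavage and 495, 515 and 462 CPM in the larva. The ranges overlap, but at gastrulation its mean was 3339 ± 324 CPM (SD, n = 3). The same shape held for histone H2B-like LOC109106965, with means of 721 CPM at cleavage, 4091 CPM at gastrulation and 693 CPM in the larva, and for histone H4 LOC109094566, with 321, 2518 and 347 CPM. The first was stable under 3 of the 4 scalings and the second under all 4.

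A middle stage counted as above or below both ends where it differed from each by 2-fold or more in the same direction. Each of these differences also needed an edgeR adjusted p under 0.05. Of 4472 stable rows 2333 (52.2%) had no such stage among the 4 and are called level. Those with a stage above and none below were 1306 (29.2%), and those with one below and none above 813 (18.2%). The other 20 had both. Over all tested rows the same shares above and below were 16.7% and 11.1%. Ends chosen to be close leave more room outside them, so nothing is read from that difference. Level rows are those without a call, so they include rows whose middle stages moved but missed the threshold. The stage farthest above was gastrulation in 1252 of the 1306 rows, and the stage farthest below was gastrulation in 654 of the 813. Gastrulation libraries also had the lowest TMM factors, 0.711 to 0.777, and the balance depends on the scaling. With DESeq2 size factors the order stayed, with 1267 stable rows above and 923 below, but it turned around under the other scalings. With library totals 620 stable rows went above and 1014 below, and with the RPKM library sizes 233 went above and 967 below, over the 3828 and 2518 rows stable there. Of the 1205 rows stable under all 4 scalings, 625 were level in between, 407 went above and 167 below, with TMM factors.

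**Figure D4:**
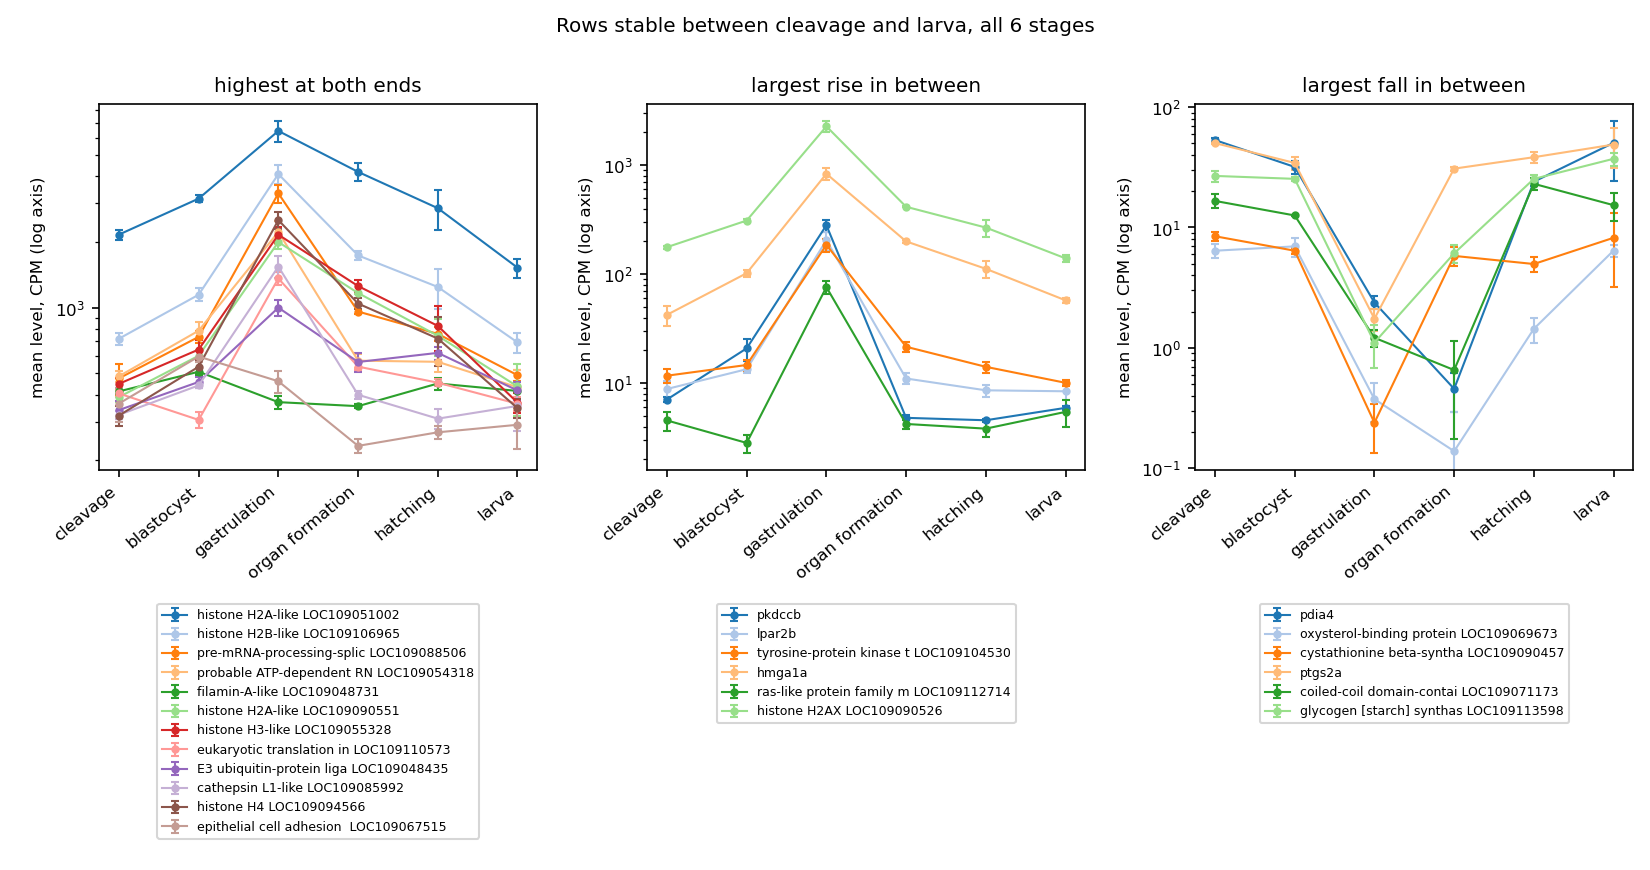
Mean CPM with SD over 3 libraries at each of the 6 stages, on log axes, for the 12 stable named rows with the highest level, at most 1 per product name (left), and the 6 stable named rows with the largest excursion above (middle) and below (right) both ends. Most of them turn at gastrulation, while filamin-A-like stays between 354 and 509 CPM at the 4 middle stages.

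The largest excursion upward was that of pkdccb, a secreted tyrosine kinase of skeletal matrix, with means of 7.09 CPM at cleavage, 281 CPM at gastrulation and 5.95 CPM in the larva. The chromatin protein hmga1a stood at 42.4, 833 and 57.6 CPM at these stages and the variant histone H2AX (LOC109090526), which marks DNA breaks, at 177, 2266 and 140 CPM. The receptor ROR2-like (LOC109104530), of Wnt signalling, stood at 11.7, 186 and 10.1 CPM. Downward, prostaglandin synthase ptgs2a had 49.4, 50.2 and 51.1 CPM at cleavage, a mean of 1.75 CPM at gastrulation and 63.3, 54.4 and 28.8 CPM in the larva. A glycogen synthase row (LOC109113598) had means of 26.8, 1.11 and 37.2 CPM, and the folding enzyme pdia4 53.2, 2.38 and 50.5 CPM. Pdia4 was lowest at organ formation, with a mean of 0.457 CPM.

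Pkdccb and pdia4 were stable under 2 of the 4 scalings, and the hmga1a, H2AX, ROR2-like, ptgs2a and glycogen synthase rows under 3. Some of these equal means rest on the library that stood apart. Pdia4 had 33.3, 37.6 and 80.6 CPM in the larva, and without larva replicate 3 its change was -0.77 on the log2 scale in place of -0.08. For cystathionine beta-synthase-like LOC109090457, of the pathway from homocysteine to cysteine, it was -0.85 in place of -0.05. Filamin-A-like stood at -0.16 and the splicing factor 8 row at -0.09 without that library. H2B-like LOC109106965 went from -0.06 to -0.31, pkdccb from -0.25 to -0.43 and ROR2-like from -0.22 to -0.39. Each of them then passed as a fall (edgeR adjusted p = 0.041, 0.021 and 0.033). So did pdia4 and the cystathionine beta-synthase-like row (edgeR adjusted p = 5.8e-05 and 0.0046). H2AX went from -0.34 to -0.58, hmga1a from 0.44 to 0.22 and the glycogen synthase row from 0.47 to 0.18. Histone H4 LOC109094566 went from 0.11 to -0.04 and ptgs2a from -0.04 to 0.04.

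Rows that share a product name were compared next. Among 4481 names held by exactly 2 tested rows, both rows rose in 1783 pairs (39.8%), both fell in 961 (21.4%), and 1 rose while the other fell in 443 (9.89%). A rise beside a row that did not pass was seen in 521 pairs, a fall beside one in 499, and 274 pairs had no row that passed. Of all protein-coding rows 53.9% rose and 28.7% fell, so unrelated rows are often opposite too. Their share of opposite pairs was not computed, so 9.89% is not read as a feature of shared names. The ratio of the 2 rows within each library does not depend on scaling. Where a row had no read in a library, however, the ratio there is set by the small prior count and by library depth. The size and rank of such changes depend on these, and this holds for several of the largest changes below. The ratio changed between the stages in 2257 pairs (50.4%) by limma's moderated test with an adjusted p under 0.05. The change was 4-fold or more in 1286. Both rows were stable in 167 pairs (3.73%). A shared name does not show that 2 rows are duplicates, since names such as "fantom-like" cover different genes, and the sources used here do not give how reads that fit both copies were counted.

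Opposite pairs can hold a large or a small shift. In 107 of the 443 (24.2%) each row changed 4-fold or more, and in 250 each row reached 5 CPM at its higher stage. Per length, as deposited RPKM, the row with the higher level changed from 1 row to the other between the stages in 217 (49.0%). The count was 413 to 451 under the 4 scalings, with 304 pairs opposite under all of them. In each pair below, the row that fell is called maternal and the row that rose larval. These names refer to the 2 ends only, since some of the rows were higher at a middle stage than at either end. The maternal row LOC109100704 had means of 102 CPM at cleavage and 219 CPM at gastrulation. The larval row LOC109103163 had 169 CPM at organ formation and 93.5 CPM in the larva.

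Among the 250 opposite pairs whose rows each reached 5 CPM, the largest change of ratio was in the B9.15 pair of btg4. Its partner LOC109074224 had 0.235, 0.168 and 0 CPM at cleavage and 6.97, 6.80 and 3.04 CPM in the larva, while btg4 went the other way as given above. The log2 ratio of larval to maternal row changed by 18.86 ± 1.08 (limma adjusted p = 9.8e-09). The larval row stayed weak, at 0.649 ± 0.25 RPKM (SD, n = 3), against 156 ± 8.23 RPKM for btg4 at cleavage.

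A pair named translation initiation factor IF-2-like moved in the reverse proportion. The maternal row LOC109064825 went from 11.3, 10.2 and 9.24 CPM to 0.116, 0.140 and 0.264 CPM, and the larval row LOC109103163 from 0, 0.168 and 0.342 CPM to 87.5, 95.5 and 97.6 CPM. The symbol of the maternal row, si:dkeyp-34c12.1, is that of an unnamed zebrafish gene, so the shared name need not mean a shared function. The ratio changed by 15.73 ± 1.19 (log2, limma adjusted p = 1.4e-07).

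Transporters gave 2 of the 10 pairs with the largest ratio change among these 250. In equilibrative nucleoside transporter 1-like, which carries nucleosides across the cell membrane, the maternal row LOC109100704 went from 105, 104 and 96.9 CPM to 41.2, 37.5 and 42.3 CPM. The larval row LOC109098372 had no read at cleavage and 28.2, 30.7 and 33.0 CPM in the larva. Per length the 2 rows ended near each other, at 4.26 ± 0.313 and 5.43 ± 0.513 RPKM (SD, n = 3). In the glucose transporter 3-like pair, the maternal LOC109056673 went from 8.75, 11.2 and 9.82 CPM to 4.45, 4.31 and 1.98 CPM and the larval LOC109074924 from no read to 21.5, 22.9 and 26.6 CPM.

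The irx4 pair encodes homeodomain factors of the Iroquois class, which pattern heart and nervous system. The maternal row LOC109111282 went from 36.0, 39.8 and 37.2 CPM to 2.36, 3.36 and 1.98 CPM. The larval row irx4a had no read at cleavage and 13.04, 12.3 and 9.03 CPM in the larva, at least 342-fold higher. The ratio changed by 13.24 ± 1.15 (log2, limma adjusted p = 5.3e-07), a size that depends on the prior count because irx4a had no read at cleavage. The ectonucleotidase pair ENTPD1-like, which breaks down extracellular ATP, had a maternal row (LOC109056122) that kept 17.8 to 24.9 CPM in the larva, beside a larval row (LOC109056659) at 30.9 to 39.8 CPM that had 1 read at cleavage. In the csrnp3-like pair of nuclear proteins, csrnp3 went from no read to 22.4, 20.7 and 16.4 CPM.

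The remaining 3 of these 10 pairs need care. In the fantom-like pair the larval row is rpgrip1, a gene of photoreceptor cilia, and the maternal row LOC109056335 carries no symbol. In the hemagglutinin/amebocyte aggregation factor-like pair the larval row LOC109079211 had 0.426, 0.350 and 25.7 CPM in the larva, so its level rests on larva replicate 3. With no read at cleavage, it was at least 232-fold higher. Its fitted log2 change, which depends on the small prior count of the fit, was 10.98, and 6.42 without that library. In the TRIM16-like pair the larval row LOC109081792 stood at 86.6 CPM at gastrulation, above its 11.8 to 16.6 CPM in the larva. The maternal row LOC109075219 was also highest then, with means of 49.6 CPM at cleavage and 183 CPM at gastrulation.

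**Figure D5:**
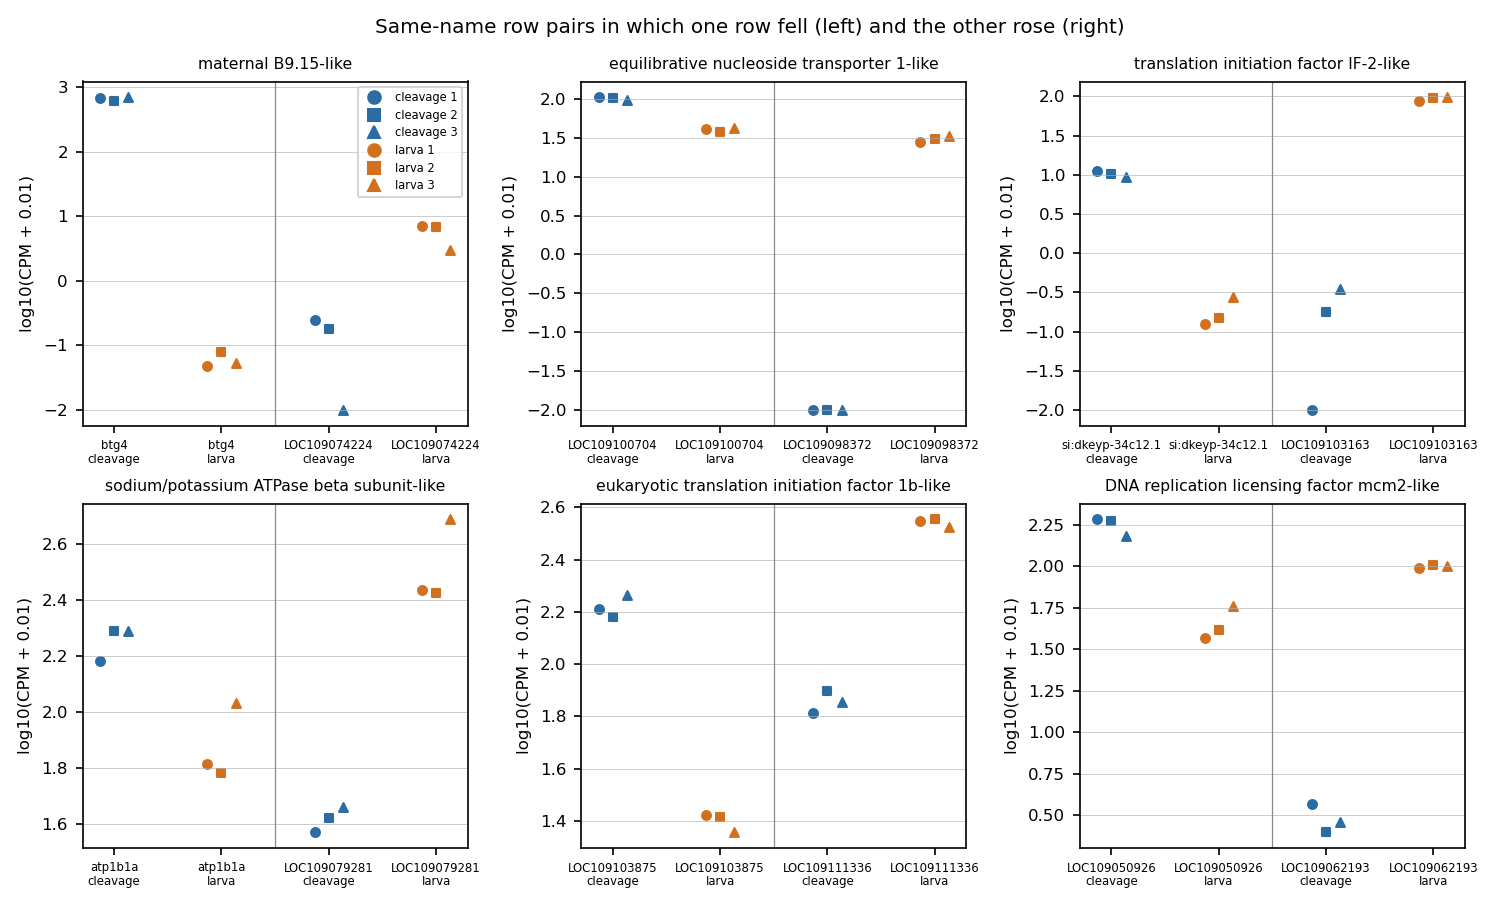
Level in each of the 3 cleavage (blue) and 3 larval (orange) libraries, as log10 of CPM plus 0.01, for both rows of 6 same-name pairs, with the row that fell on the left of each panel and the row that rose on the right. In the Na/K-ATPase beta-233-like pair the falling row goes from 152 to 195 CPM down to 60.4 to 108 CPM and the rising row from 37.0 to 45.6 CPM up to 267 to 490.2 CPM.

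Abundant housekeeping genes also held opposite pairs. The 8 opposite pairs with the highest level in both the maternal row at cleavage and the larval row in the larva were looked at after their values were seen. The first was the beta-233-like subunit of the sodium pump, which moves sodium out of and potassium into the cell. The maternal row atp1b1a went from 40.9 ± 4.94 to 13.5 ± 4.78 RPKM and the larval row LOC109079281 from 6.39 ± 0.341 to 40.8 ± 15.8 RPKM (SD, n = 3). The ratio changed by 4.26 ± 0.15 (log2, limma adjusted p = 1.1e-10). Larva replicate 3 was the highest larval library for both rows.

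In the eIF1b-like pair, of start-codon selection in translation, the maternal LOC109103875 went from 162, 152 and 185 CPM to 26.6, 26.03 and 22.7 CPM. The larval LOC109111336 went from 64.8, 78.8 and 71.4 CPM to 353, 358 and 335 CPM. Per length the maternal row went from 64.7 ± 2.58 to 7.47 ± 0.494 RPKM and the larval row from 21.6 ± 2.73 to 80.1 ± 1.57 RPKM (SD, n = 3).

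The MCM2 helicase subunit also had a falling and a rising row, but unlike mcm6l its falling row was still present in the larva. The maternal mcm2-like row LOC109050926 went from 192, 187 and 151 CPM to 36.9, 41.0 and 57.6 CPM, and the larval row LOC109062193 from 3.66, 2.48 and 2.88 CPM to 97.5, 102 and 100.1 CPM. The ratio changed by 7.05 ± 0.21 (log2, limma adjusted p = 1.6e-11). The larval row was at 114 CPM at gastrulation and 269 CPM at organ formation, beside 113 and 137 CPM for the maternal row.

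In the Sec23A pair, of the coat of vesicles that leave the endoplasmic reticulum, the NCBI symbols differ. The maternal row is sec23b, at 97.8, 97.5 and 90.5 CPM at cleavage and 74.3, 74.4 and 50.3 CPM in the larva. The larval row is sec23a, at 35.6, 46.2 and 37.1 CPM and then 109, 112 and 108 CPM. The other 4 had smaller shifts: heat shock 70 kDa protein 4-like, the SUMO-conjugating enzyme UBC9-B-like and apoptosis-inducing factor 1-like were opposite under 2 of the 4 scalings and far upstream element-binding protein 1-like under 1, so their opposite calls depend on the scaling. Their ratio changes do not, and ranged from 0.77 to 2.01 on the log2 scale.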

How the data were processed

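Ribosomal RNA-depleted, strand-specific libraries of whole embryos and larvae were sequenced, 3 for each of 6 stages. The deposited table holds whole-number read counts and RPKM values per row, made by the authors. HISAT2, StringTie 1.3.3b, featureCounts and edgeR are named in the submitters' processing notes, without their settings. The sources used here do not give the library sizes the authors put behind RPKM, nor their handling of reads that fit several rows.

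Counts were fitted with edgeR 4.0.16 in R 4.3.3 (TMM scaling, filterByExpr, quasi-likelihood test) over all 18 libraries, and larva was contrasted with cleavage. Stable rows passed 2 one-sided tests against a 2-fold bound. Same-name pairs share the Description of exactly 2 tested rows, and their within-library log2 ratio was tested with limma 3.58.1 (prior count 0.5). All p-values were Benjamini-Hochberg adjusted over all tested rows or pairs. RPKM served for levels between rows and for limma alternatives. DESeq2 1.42.0 was another alternative, beside other scalings, filters, bounds and leaving out each library. A stage without counts was set to a floor of 3 counts summed over its libraries. Intervals and floors cover counting error only.

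Named were the 12 largest rises and falls of named protein-coding rows at 20 CPM or more without overlap, at most 1 per product name. Also named were the 3 largest of other rows, up to 8 members of each list and 24 stable rows. The 10 opposite pairs with the largest ratio change, among those whose rows each reached 5 CPM at the higher stage, were added. Of all these the text gives some. Members and lists were chosen with earlier results of these data known. Lists were drawn by symbol and product name and took in outsiders, such as taperin, npm3 and rps19bp1. On simulated data with 69265 rows, 52% of 2-fold and 95% of 4-fold changes and 0.013% of unchanged rows were called changed. There, 96.1% of unchanged rows over 5 CPM were called stable. The ratio test called 83% of 4-fold changed pairs with both rows over 1 CPM. In the simulation nearly all rows had equal levels at the 2 ends, while in the data 80.9% of rows rose or fell. Adjusted p-values depend on that share, so these rates do not carry over to the data. No sequence is shown and no coordinates are given.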

Additional observations from a re-analysis of the deposited data

How the results depend on the processing

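Scaling, the libraries in the fit, the test and its bounds moved several counts by more than 1.5 times. The other row filters of the edgeR test did not move the counts of rises, falls, stable rows or pairs that far. The stable rows fell to 2518 with the library sizes implied by RPKM, to 2143 with the 6 compared libraries alone and to 258 with a bound of 1.5-fold. The stable rows above both ends in between were 620 with library totals and 233 with the RPKM library sizes, against 1014 and 967 that went below both ends, the reverse of the order with TMM factors. With DESeq2 size factors the order was that with TMM factors, at 1267 above and 923 below. Stable rows level in between were 1308 with the RPKM library sizes and 1277 with a bound of 1.5-fold. Limma, on the 46868 rows that passed its RPKM minimum of 0.5, called with log2(RPKM + 1) 22189 rises and 17342 falls and with log2(RPKM + 0.1) 22579 and 17090, so that 56.1% and 56.9% of the calls were rises against 72.2% in the edgeR test. Tested against a 2-fold change, 9765 rows fell. Opposite pairs were 237 when each row had to change 2-fold. Of 8287 names held by 2 to 10 tested rows, 1389 had at least 1 row that rose and 1 that fell, a count of names and not of pairs. DESeq2 called 41969 rises and 14457 falls. For these moves the cause was not tested, except where the alternative's own definition is narrower or wider.

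Leaving out each library in turn gave 39445 to 41392 rises, 14773 to 16668 falls, 3456 to 3945 stable rows, 398 to 431 opposite pairs and 2012 to 2169 pairs with a changed ratio. The replicate block gave 40277 rises, 15276 falls, 4261 stable rows and 433 opposite pairs. The replicate numbers are not shown to pair the samples, since the deviations of same-numbered libraries correlated at -0.063, -0.009 and -0.027.

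Leaving out 1 library also moved the fitted list medians of muscle and brain energy genes from 7.66 to 8.96, collagens from 8.39 to 9.10, muscle filaments from 10.84 to 10.11 and hemoglobins from 8.36 to 7.51. Crystallins moved from 10.53 to 9.81, glia from 6.95 to between 6.13 and 7.62 and ion pumps from 2.92 to 2.37. The medians of 2 lists changed sign. That of the spliceosome genes was 0.162 with DESeq2 size factors, 0.164 with DESeq2 and 0.036 without a filter. Leaving out a library moved it from -0.186 (larva replicate 3) to 0.045 (larva replicate 2). That of the yolk genes was 0.156 without a filter, and from -1.214 (without larva replicate 3) to 0.106 (without cleavage replicate 1) when a library was left out. The row LOC109048435 went to -0.018 with library totals, -0.102 with RPKM library sizes and -0.083 and -0.091 with limma at the larger and smaller pseudocount. LOC109111112 went to -0.073 with RPKM library sizes and -0.068 and -0.071 with limma. Rows with few counts are limited by depth: at cleavage no level under 0.0339 CPM can be told from 0.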
